A study of Mus musculus with 14 samples.

Results

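The genes described here encode the proteasome, the protease complex that destroys proteins tagged with ubiquitin. They were taken as every protein-coding gene in the deposited count table whose mouse symbol has the proteasome prefix Psma, Psmb, Psmc, Psmd, Psme, Psmf or Psmg followed by a number. This rule found 49 of the 52636 genes in the table: 7 of the alpha ring and 7 of the beta ring of the core, 6 ATPases and 11 other subunits of the regulatory cap, 7 assembly chaperones, 5 genes of the immunoproteasome, 4 other activators or inhibitors, and 2 core subunits restricted to single tissues. The rule itself uses no measured value, but the members were chosen with earlier results of these data known.

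The libraries came from mice carrying a transplanted leukemia that the labels call I1DN, in a study of mutant IDH1 in acute myeloid leukemia. AG120 (ivosidenib) inhibits the mutant IDH1 enzyme, which makes 2-hydroxyglutarate. The 5 groups, all transplanted with the same I1DN leukemia, were 3 mice on vehicle and 3 on AG120 for 5 days, 2 on vehicle and 2 on AG120 for 14 days, and 4 whose disease came back after a full course of 28 days of AG120 (called relapse below). From each mouse, leukemic progenitors that carried cKit and lacked CD11b on their surface were sorted, and QuantSeq libraries, which read only the 3′ ends of messages, were made from the RNA, so a library is 1 mouse and a count does not grow with transcript length. The labels give no age, sex or mouse strain and do not name the alleles of I1DN, and a sort by surface protein can keep host cells or cells at several stages of differentiation.

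In the proteasome, a barrel-shaped core of alpha and beta rings holds the protease sites. A cap of ATPases and other subunits binds ubiquitin-tagged proteins, removes the ubiquitin, unfolds them and feeds them into the barrel. Interferon and cells of the immune system switch on inducible beta subunits that take the places of the constitutive ones and change which peptides are made for display on MHC class I. In blood cells both forms exist together, and dividing leukemia cells depend on the complex, which is a drug target in blood cancers.

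Total counts were 4995738 to 8691708 per library, of which ribosomal RNA gene models took 50.9% to 74.8%, leaving 1259982 to 3358874 counts for all other genes. AG120 day 14 replicate 1 was the shallowest by this measure, at 1259982. The ribosomal RNA share was 50.9% to 59.8% in vehicle and 62.5% to 65.3% in AG120 at day 5, with no overlap. At day 14 it was 68.1% and 55.8% in vehicle and 74.8% and 63.1% in AG120. Fewer genes were detected with AG120 at day 5, at 17151 to 18095 against 19149 to 19770 in vehicle. Relapse replicates 1 and 4 resembled each other (Pearson r of log2 CPM 0.972 across all genes tested, which are not independent), as did replicates 2 and 3 (0.957), and both pairs stood apart from each other. The sort marker Kit was at 33.5 to 37.8 CPM (counts scaled to a common library size) in the vehicle libraries, at 23.6 to 33.1 CPM in AG120 day 5 and at 11.6 CPM in both AG120 day 14 libraries. In relapse Kit was at 18.9, 50.2, 52.0 and 19.2 CPM, and Itgam, which encodes CD11b, was at 53.5, 13.9, 16.1 and 35.5 CPM. At day 5 Itgam was at 10.6 to 15.5 CPM in vehicle and 2.56 to 3.81 CPM in AG120. At day 14 it was at 14.5 to 18.0 CPM in vehicle and 5.97 to 8.01 CPM in AG120. In edgeR's test Itgam was lower with AG120 at day 5 (log2 −2.02, adjusted p = 0.0103) but did not pass at day 14 (−1.19, adjusted p = 0.154). Kit did not pass at day 5 (−0.41, adjusted p = 0.393) and was lower at day 14 (−1.63, adjusted p = 0.022). The marker selected against was present as RNA in every library.

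Of the 49 genes, 47 passed the filter on low counts and were tested, and 46 of these had at least 10 counts in every library. The exception among those tested was Psmb11, the core subunit of the thymic cortex, which had 0 counts in relapse replicate 2 (up to 3 counts remain possible there, by counting error alone) and at most 2.2 CPM elsewhere. Psma8, a core subunit of the testis, had 1 count in all libraries together, and Psme2b, a near copy of Psme2, had 12, so neither was tested. Exons of 14 of the 49 overlap those of another gene, among them Psmb9 with the peptide transporter gene Tap1 and Psmb8 with Gm20496, both on the opposite strand. Whether counting used strand is not given in the sources used here, so reads of such partners may be shared.

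Promoter windows of RefSeq genes (build GRCm38.p6, 250 bases before to 50 bases after the start) were found for 41 of the 49 genes. They were searched on both strands for the letters of sites read by NFE2L1 and NFE2L2, by NF-Y and by interferon regulatory factors. The full antioxidant form, TGAC and GCA with 3 bases between them, the site form through which NFE2L1 is known to drive proteasome genes, was present in 2 of the 41 (4.9%, against 3.45% of all 27025 genes with a window), in Psmd12 and Psme4. The looser form TGANNNNGC, which contains every match of the full one, was present in 23 (56.1% against 45.0%), and CCAAT in 14 (34.1% against 41.1%). The interferon form, GAAA repeated after 2 bases, was present in 5 (12.2% against 3.99%), in Psmb3, Psmd4, Psmd9, Psme1 and Psmg4. A match is a string of letters and not a measured binding site. The 250 bases before the starts of Psmd9 and Psmd4 are shown because both rose at both days and hold the interferon form (Psmb3, which did so too, is not shown). Of the 15 genes with a window that rose at both days, 3 hold this form. The windows of Psmb8 and Psmb9, which fell at both days, hold no match to it, and the holders Psme1 and Psmg4 did not pass at either day. A link between the form and the changes was not tested. Capitals mark the matches on either strand, the sequences run 5′ to 3′ on the strand of the gene, and the positions are chr5:123227940-123228189 (plus strand) and chr3:95042615-95042864 (minus strand).
Psmd9: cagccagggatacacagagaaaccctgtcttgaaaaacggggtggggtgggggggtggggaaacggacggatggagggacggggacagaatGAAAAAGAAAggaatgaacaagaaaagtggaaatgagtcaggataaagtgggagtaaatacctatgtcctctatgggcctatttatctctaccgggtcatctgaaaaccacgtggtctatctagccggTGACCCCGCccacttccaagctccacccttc
Psmd4: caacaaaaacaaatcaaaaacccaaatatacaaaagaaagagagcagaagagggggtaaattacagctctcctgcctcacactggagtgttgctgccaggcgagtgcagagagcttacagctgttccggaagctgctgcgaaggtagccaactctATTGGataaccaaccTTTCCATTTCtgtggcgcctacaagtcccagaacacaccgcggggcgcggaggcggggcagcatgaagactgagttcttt
In Psmd9 the capitals are the interferon form and then the looser antioxidant form, and in Psmd4 the CCAAT letters on the opposite strand and then the interferon form on the opposite strand.

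The first comparison asks what 5 days of AG120 changed in proteasome genes. Most genes of the cap and most assembly chaperones, of cap and core alike, were higher with AG120. Most genes of the core rings did not pass the test, and 2 inducible catalytic subunits were lower. Of the 47 genes tested 22 rose and 2 fell, and 23 did not pass, where over all 11994 genes tested 20.1% rose and 19.3% fell. The median log2 fold change of the 47 was 0.38, against 0.00 over all genes tested, and 41 of the 47 values were positive. The libraries of AG120 lay above all those of vehicle for 31 of the 47 genes and below them for 3, where this held for 30.1% and 29.8% of all genes tested. In these sorted bulk samples, fewer cells of a type and less RNA per cell cannot be told apart.

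**Figure D1:**
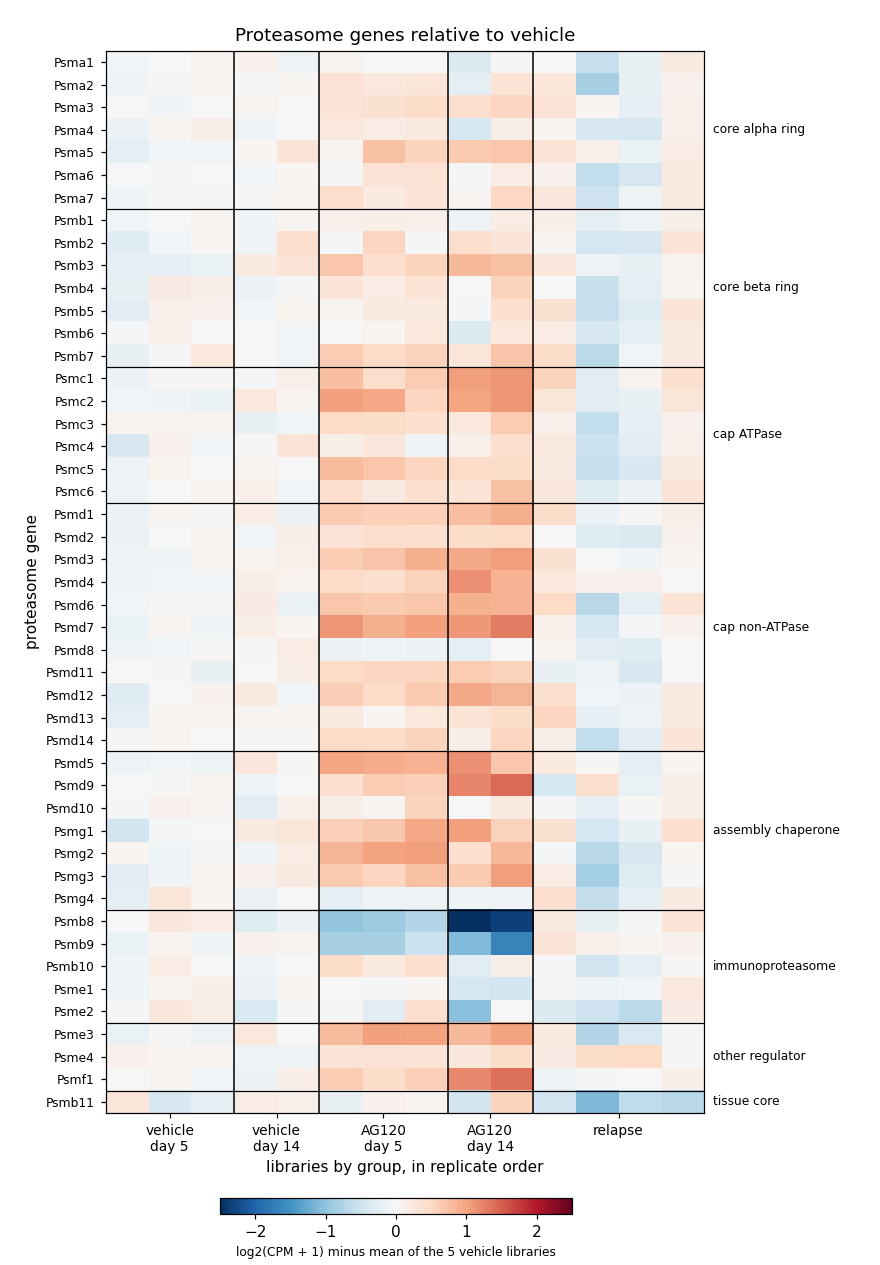
Heat map of the 47 tested proteasome genes (rows, by class) in the 14 libraries (columns, by group and in replicate order). Color is log2(CPM + 1) minus the mean of the 5 vehicle libraries, on a scale from blue (lower) to red (higher); most cap and chaperone rows are red in the 5 AG120 libraries (Psmd8 and Psmg4 are not), Psmb8 and Psmb9 are blue there, and the relapse libraries lie near vehicle, with replicate 2 paler blue in many rows.

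In the core at day 5, 3 of 14 genes rose (21.4%), with a median of 0.28. That share was near the 20.1% of all genes tested that rose. Psmb3, a beta ring subunit without protease activity, was at 38.0, 38.0 and 38.9 CPM in vehicle and at 71.6, 58.5 and 65.0 CPM in AG120. The groups were well apart, and Psmb3 rose by 0.76 ± 0.13 (log2, SE, adjusted p = 0.000237). The other 2 that rose were alpha ring genes, Psma5 at 0.63 ± 0.17 (adjusted p = 0.00856) and Psma3 at 0.44 ± 0.14 (adjusted p = 0.0184). Psma5 no longer passed without AG120 day 5 replicate 2 (adjusted p = 0.059), and Psma3 no longer passed without AG120 day 5 replicate 3 (0.0665) or vehicle day 5 replicate 2 (0.0697).

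The 3 constitutive catalytic subunits did not pass at day 5. Psmb5, which holds the chymotrypsin-like site, was at 97.4, 128 and 127 CPM in vehicle and at 123, 137 and 140 CPM in AG120, so that the groups overlapped (0.18 ± 0.22, adjusted p = 0.534). Psmb6, the caspase-like subunit, was at 74.2, 84.8 and 77.6 CPM in vehicle and at 76.3, 80.6 and 92.3 CPM in AG120 (0.07 ± 0.17, adjusted p = 0.766). Psmb7, the trypsin-like subunit, was at 45.3, 50.8 and 62.7 CPM in vehicle and at 81.2, 73.8 and 77.8 CPM in AG120. Its libraries did not overlap, but the difference of 0.55 ± 0.22 did not pass (adjusted p = 0.0556).

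In the cap at day 5, 12 of 17 genes rose (70.6%, median 0.6): 3 of 6 ATPases and 9 of 11 other subunits. Psmd7, the scaffold that pairs with the deubiquitinase subunit Psmd14, was at 83.3, 98.6 and 87.4 CPM in vehicle and at 202, 175 and 192 CPM in AG120. Every AG120 library was far above every vehicle library, and Psmd7 rose 2.11-fold (log2 1.08 ± 0.14, adjusted p = 1.64e-05). Psmc2, an ATPase of the ring that unfolds substrates, was at 25.8, 25.4 and 24.0 CPM in vehicle and at 55.8, 53.8 and 39.8 CPM in AG120, a rise of 0.99 ± 0.17 (adjusted p = 0.000259). Psmd3, a structural subunit of the cap, was at 167, 165 and 186 CPM in vehicle and at 279, 295 and 334 CPM in AG120 (0.81 ± 0.13, adjusted p = 8.88e-05). Psmd4, a receptor for ubiquitin chains, rose by 0.58 ± 0.11 (adjusted p = 0.000454), and the ATPases Psmc5 and Psmc1 rose by 0.72 ± 0.18 and 0.64 ± 0.16.
The cap genes that did not pass were Psmc3, Psmc4, Psmc6, Psmd8 and Psmd13. Psmd8, a small cap subunit, was at 105, 106 and 114 CPM in vehicle and at 101, 104 and 101 CPM in AG120, slightly lower in every library but not past the test (−0.09 ± 0.12, adjusted p = 0.605). Psmd14 rose by 0.5 ± 0.18 (adjusted p = 0.0371), but did not pass once any of the 6 libraries was left out (adjusted p 0.0732 to 0.104). Psmd6 was lost without any of 5 of the 6 (0.0534 to 0.0671), all but AG120 day 5 replicate 2, and Psmd2 without vehicle day 5 replicate 1 (0.0634).

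Of the 7 assembly chaperones, 5 rose at day 5 (median 0.75). Psmd5, which holds part of the ATPase ring until the cap is complete, was at 12.4, 12.9 and 12.3 CPM in vehicle and at 27.7, 26.5 and 25.4 CPM in AG120. Replicates differed little and the groups were far apart (1.08 ± 0.16, adjusted p = 4.4e-05). Psmg1 and Psmg2, which together guide the alpha ring, rose by 0.97 ± 0.23 (adjusted p = 0.00272) and 1.02 ± 0.17 (adjusted p = 0.000197), and Psmg3, which acts with Psmg4 on the same ring, rose by 0.75 ± 0.19 (adjusted p = 0.00623). Psmg4 was at 12.1, 18.0 and 15.3 CPM in vehicle and at 12.3, 13.3 and 13.1 CPM in AG120, with overlapping libraries (−0.24 ± 0.22, adjusted p = 0.418). Psmd9, another chaperone of the ATPase ring, rose by 0.54 ± 0.18 (adjusted p = 0.0281), a call lost without any of 5 of the 6 libraries (0.0575 to 0.0892), all but AG120 day 5 replicate 1. Psmd10, a chaperone of the same ring also known as gankyrin, was at 0.24 ± 0.17 (adjusted p = 0.268).

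Among the activators and inhibitors outside the immunoproteasome, Psme3, the activator of the nucleus, was at 18.1, 20.9 and 18.5 CPM in vehicle and at 36.0, 42.7 and 42.0 CPM in AG120 at day 5. The libraries did not overlap, and Psme3 rose by 1.07 ± 0.19 (adjusted p = 0.0003). Psmf1, a regulator that inhibits the core in the test tube, was at 7.12, 7.52 and 6.71 CPM in vehicle and at 11.7, 10.2 and 11.3 CPM in AG120, a rise of 0.64 ± 0.17 (adjusted p = 0.00601). Psme4, a large single-chain activator, was at 43.9 to 45.6 CPM in vehicle and 53.5 to 54.8 CPM in AG120 and did not pass (0.28 ± 0.13, adjusted p = 0.0959).

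The 5 immunoproteasome genes did not move as a unit at day 5: 2 fell and 3 did not pass, with a median of −0.07. Psmb8, the inducible counterpart of Psmb5 (chr17:34197721-34201454, plus strand, GRCm38), was at 67.8, 83.6 and 77.5 CPM in vehicle and at 34.0, 35.8 and 41.0 CPM in AG120. Each AG120 library was well below each vehicle library, and Psmb8 fell 2.07-fold (log2 −1.05 ± 0.15, adjusted p = 4.4e-05). Psmb9, the inducible counterpart of Psmb6 (chr17:34181987-34187764, minus strand), was at 31.3, 37.2 and 32.4 CPM in vehicle and at 19.4, 19.3 and 23.8 CPM in AG120, a fall of 1.62-fold (log2 −0.69 ± 0.15, adjusted p = 0.00133).
Psmb10, the inducible counterpart of Psmb7, lies on chromosome 8, away from the other 2, and was at 41.7, 50.2 and 44.5 CPM in vehicle and at 60.9, 52.3 and 59.6 CPM in AG120. It was thus higher in every AG120 library, but did not pass (0.34 ± 0.15, adjusted p = 0.0823). Psme1 and Psme2, which form the interferon-inducible activator ring, were at −0.03 ± 0.13 (adjusted p = 0.858) and −0.07 ± 0.28 (adjusted p = 0.87), with overlapping libraries.

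**Figure D2:**
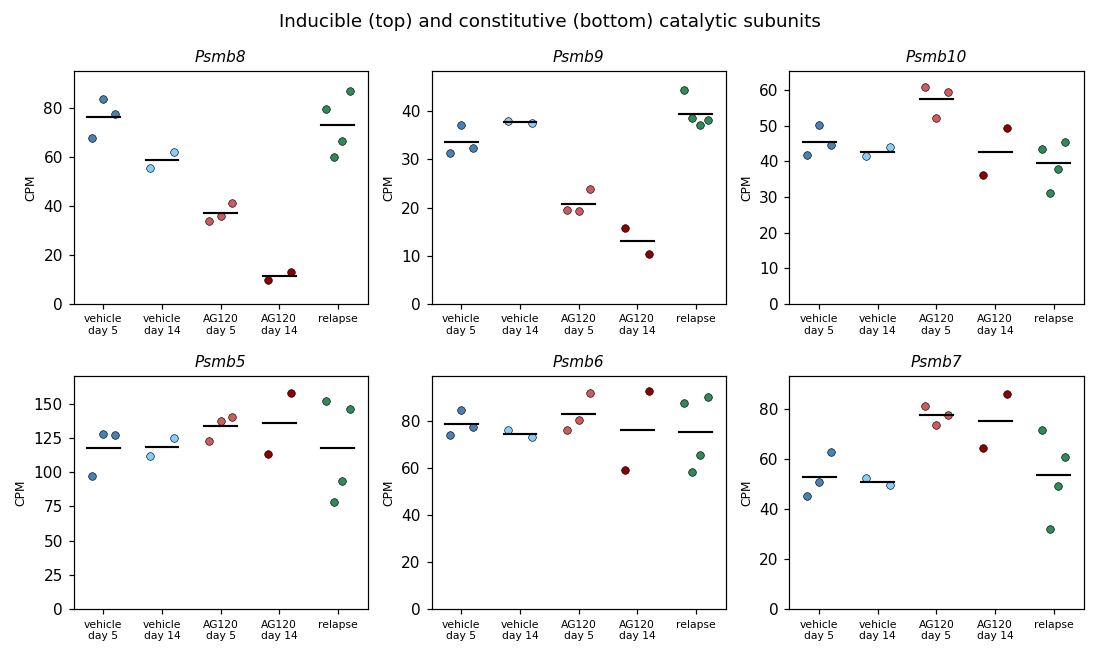
CPM of the 3 inducible catalytic subunits (top) and of the constitutive subunits whose places they take (bottom) by group; each point is 1 library, lines are group means, and axes start at 0. Psmb8 and Psmb9 are lower in all 5 AG120 libraries than in any vehicle or relapse library, while the points of Psmb5 and Psmb6 overlap between groups.

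The second comparison asks the same at day 14, with 2 libraries in each group and the spread estimated from all 14. Most cap genes, 4 assembly chaperones and 3 activators or inhibitors outside the immunoproteasome were higher, with 2 core genes, and Psmb8 and Psmb9 were lower. Of the 47 genes 20 rose and 2 fell, and 25 did not pass, where over all genes tested 16.8% rose and 17.9% fell; the median was 0.45, against −0.01 over all genes tested. The libraries did not overlap for 28 genes that were higher and 3 that were lower, where this held for 34.2% and 36.3% of all genes tested. The count of 22 calls rested on few libraries: it was 17 without AG120 day 14 replicate 1, 12 without AG120 day 14 replicate 2, 14 without vehicle day 14 replicate 1 and 10 without vehicle day 14 replicate 2. The 9 genes that passed in every alternative were Psmb8, Psmb9, Psmc1, Psmc2, Psmd3, Psmd4, Psmd7, Psmd9 and Psmf1. The cap gave 5 of these 9 and the core rings none.

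Psmd9 was at 9.96 and 10.8 CPM in vehicle and at 26.6 and 30.8 CPM in AG120 at day 14, and rose 2.77-fold (log2 1.47 ± 0.23, adjusted p = 0.000106). Psmf1 was at 6.3 and 8.15 CPM in vehicle and at 17.6 and 20.2 CPM in AG120, and rose 2.62-fold (log2 1.39 ± 0.21, adjusted p = 6.85e-05). These were the largest rises of the 47 genes at that day, and in both the AG120 libraries were clear of vehicle. Psmd7 was at 105 and 97.7 CPM in vehicle and at 201 and 233 CPM in AG120, a rise of 1.1 ± 0.17 (adjusted p = 0.000116). Psmc1, an ATPase of the unfolding ring, was at 161 and 181 CPM in vehicle and at 344 and 357 CPM in AG120 (1.03 ± 0.2, adjusted p = 0.000878). The AG120 libraries of both genes were again clear of vehicle. Psmd4 was at 153 and 146 CPM in vehicle and at 304 and 253 CPM in AG120 (0.9 ± 0.13, adjusted p = 6.12e-05), and Psmd3 rose by 0.91 ± 0.15 (adjusted p = 0.000233).

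By class, 2 of 14 core genes rose at day 14 (14.3%, median 0.19), 11 of 17 cap genes (64.7%, median 0.6), 4 of 7 assembly chaperones (median 0.6) and all 3 tested activators or inhibitors outside the immunoproteasome. The core share was near the 16.8% of all genes tested that rose. Among the cap calls, those of Psmc3, Psmd1, Psmd2, Psmd6, Psmd11 and Psmd12 were each lost under some alternative, mostly with a library left out. Psmd2 and Psmd11 were also lost with no filter on low counts (adjusted p = 0.254 and 0.164). The core genes were Psmb3 at 0.5 ± 0.16 (adjusted p = 0.023) and Psma3 at 0.46 ± 0.17 (adjusted p = 0.0469), and both calls were lost without any single day 14 library (adjusted p 0.0677 to 0.14 and 0.0922 to 0.21). Psme3 was at 24.6 and 20.3 CPM in vehicle and at 36.7 and 42.0 CPM in AG120 (0.81 ± 0.24, adjusted p = 0.013), a call lost without AG120 replicate 2 (0.103) or vehicle replicate 2 (0.118). Psme4 was at 39.1 and 38.8 CPM in vehicle and at 51.9 and 58.2 CPM in AG120 (0.5 ± 0.16, adjusted p = 0.0231), a call lost without AG120 replicate 2 (0.158), vehicle replicate 1 (0.0953) or vehicle replicate 2 (0.101). The chaperones were Psmd9 above, Psmd5 (0.8 ± 0.19, adjusted p = 0.00424), Psmg2 (0.6 ± 0.21, 0.0374) and Psmg3 (0.71 ± 0.24, 0.0301). Psmd5 no longer passed without AG120 replicate 1 (0.0729) or vehicle replicate 2 (0.058), and Psmg2 and Psmg3 no longer passed without AG120 replicate 2 (0.345 and 0.256), vehicle replicate 1 (0.245 and 0.156) or vehicle replicate 2 (0.0609 and 0.0971). Psmg1 and Psmg4 did not pass (0.56 ± 0.28, adjusted p = 0.134, and −0.03 ± 0.28, adjusted p = 0.944). The catalytic Psmb5, Psmb6 and Psmb7 did not pass either, at 0.2 ± 0.27, 0.04 ± 0.22 and 0.57 ± 0.27.

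At day 14 Psmb8 was at 55.4 and 61.8 CPM in vehicle and at 9.85 and 12.8 CPM in AG120. The AG120 libraries were the lowest of all 14, and Psmb8 fell 5.1-fold (log2 −2.35 ± 0.21, adjusted p = 3.35e-07). Psmb9 was at 37.9 and 37.5 CPM in vehicle and at 15.8 and 10.4 CPM in AG120, a fall of 2.93-fold (log2 −1.55 ± 0.2, adjusted p = 1.39e-05). Psme1 was at 36.9 and 42.2 CPM in vehicle and at 29.8 and 29.2 CPM in AG120, lower in both libraries but just short of the threshold (−0.42 ± 0.16, adjusted p = 0.0536). Psmb10 was at 0.01 ± 0.19 (adjusted p = 0.98) and Psme2 at −0.22 ± 0.38 (adjusted p = 0.691). The libraries of both overlapped, and the low counts of Psme2, at 3.88 and 9.01 CPM in AG120, gave it the widest error of the 5.

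**Figure D3:**
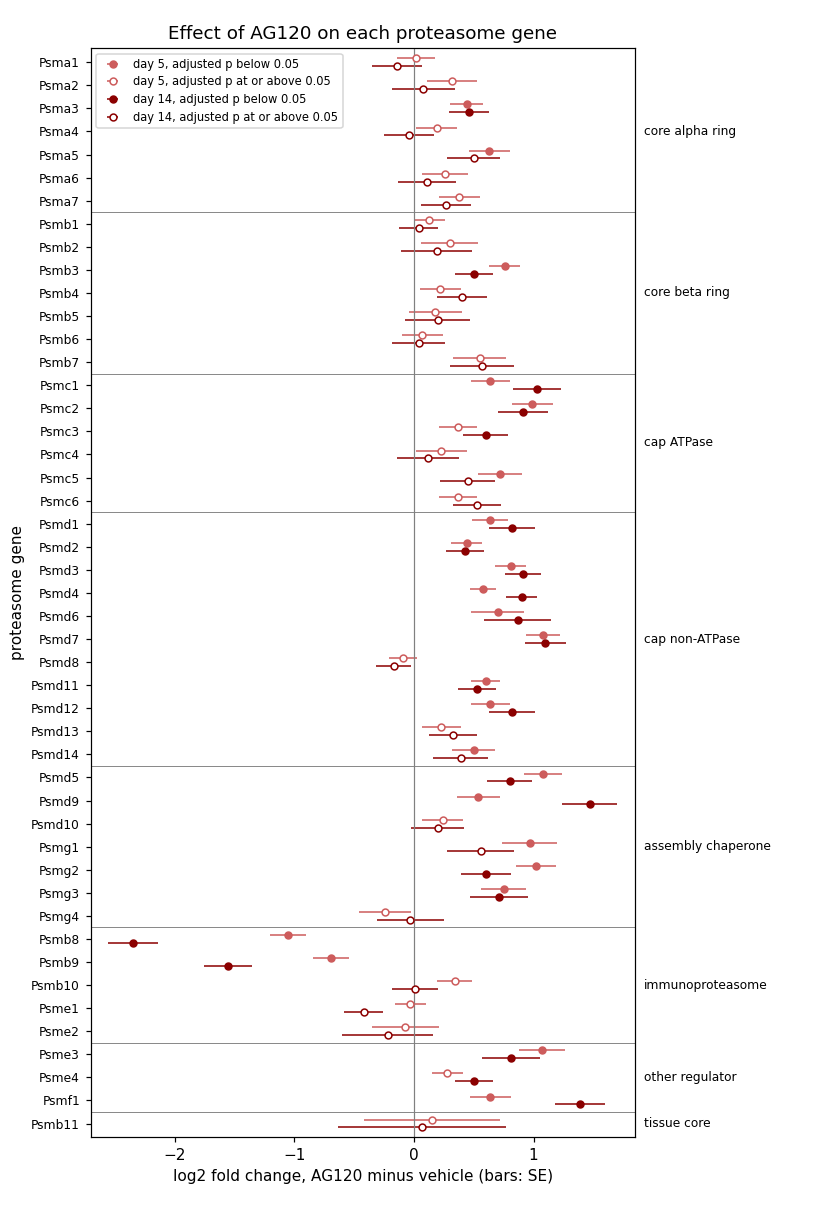
Log2 fold change of AG120 minus vehicle for each of the 47 tested genes at day 5 (light red) and day 14 (dark red), by class, with bars of 1 SE. Filled points have an adjusted p below 0.05; filled points lie to the right in the cap and chaperone classes, and the 2 filled pairs to the left are Psmb8 and Psmb9.

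The 2 days, which share no library, called mostly the same genes: 18 genes rose at both, which is 81.8% of the 22 at day 5 and 90.0% of the 20 at day 14, and Psmb8 and Psmb9 fell at both. The same shares over all genes tested were not computed, so this overlap is not read as particular to proteasome genes. Psma5, Psmc5, Psmd14 and Psmg1 passed at day 5 alone, and Psmc3 and Psme4 at day 14 alone. In a direct test of the day 14 effect minus the day 5 effect, 1 of the 47 genes passed, where 0.934% of all genes tested did. That gene was Psmb8, whose fall was larger at day 14 by −1.3 ± 0.26 log2 units (adjusted p = 0.0247). The call was lost in 11 of 18 alternatives with adjusted p up to 0.172, among them every single day 14 library left out (0.172 and 0.0688 without AG120 replicates 1 and 2, 0.0802 and 0.113 without vehicle replicates 1 and 2), while the difference itself stayed between −1.53 and −1.15. It was also lost without each AG120 day 5 library (0.0508, 0.0507 and 0.065) and without vehicle day 5 replicates 1 and 3 (0.06 and 0.0614). The corresponding differences of Psmb9 (−0.86 ± 0.25, adjusted p = 0.129), Psmd9 (0.93 ± 0.29, 0.178) and Psmf1 (0.75 ± 0.27, 0.232) did not pass. Between the vehicle groups of days 5 and 14, 0 of the 47 genes passed in edgeR's test (0.0% of all genes tested), 2 had an unadjusted p under 0.05, and DESeq2 and limma-voom also called 0. Psmb3 was at 0.48 and Psmb8 at −0.38 (log2, day 14 minus day 5) in vehicle, and both passed in a fit of the vehicle groups alone.

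Ratios within a library do not depend on how libraries are scaled. The log2 ratio of Psmb8 to Psmb5 was −0.52, −0.61 and −0.71 in vehicle day 5, −1.86, −1.94 and −1.77 in AG120 day 5, −1.02 in both vehicle day 14 libraries and −3.52 and −3.62 in AG120 day 14. In relapse it was −0.93, −0.39, −0.50 and −0.75. All 5 AG120 libraries lay below all 9 others, and the relapse libraries ranged over the vehicle values and somewhat above. The log2 ratio of Psmb9 to Psmb6 was −1.26 to −1.19 with vehicle against −2.06 to −1.96 with AG120 at day 5, and −1.01 and −0.97 against −1.91 and −3.16 at day 14. The AG120 day 14 libraries differed widely from each other, with Psmb6 itself at 59.4 and 92.9 CPM, yet both were below all vehicle and relapse libraries (relapse −1.25 to −0.60). The ratio of Psmb10 to Psmb7 was −0.84 and −0.80 in AG120 day 14 and −0.34 and −0.17 in vehicle day 14, but at day 5 the AG120 values (−0.50 to −0.38) overlapped those of vehicle (−0.49 to −0.02). The levels of such ratios depend on how well each 3′ end was captured, so only their differences between libraries are read.

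**Figure D4:**
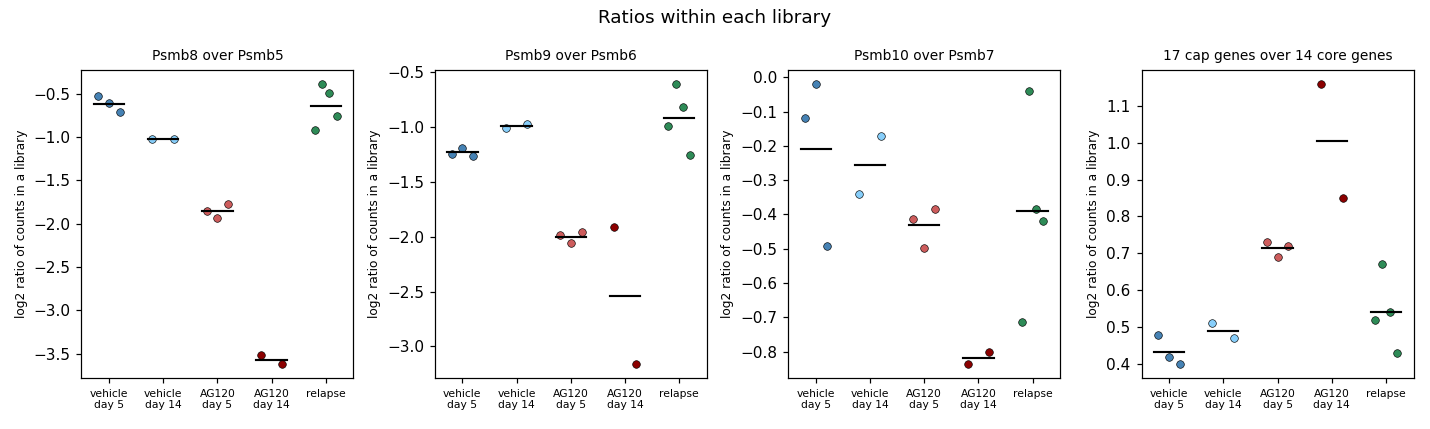
Log2 ratios of counts within each library for the 3 inducible over constitutive pairs and for the sum of 17 cap genes over the sum of 14 core genes, by group; each point is 1 library and lines are group means. The Psmb8 and Psmb9 ratios are lower, and the ratio of cap to core is higher, in all 5 AG120 libraries than in the 9 others.

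The balance of cap to core moved as well. The log2 ratio of summed cap counts to summed core counts was 0.48, 0.42 and 0.40 in vehicle day 5 and 0.73, 0.69 and 0.72 in AG120 day 5. It was 0.51 and 0.47 in vehicle day 14, 1.16 and 0.85 in AG120 day 14, and 0.52, 0.67, 0.54 and 0.43 in relapse. The AG120 libraries lay above all others, with relapse replicate 2 closest to them. Of the counts outside ribosomal RNA, the 17 cap genes took 0.369% to 0.395% with vehicle against 0.517% to 0.539% with AG120 at day 5, and 0.408% to 0.410% against 0.617% to 0.626% at day 14. The 14 core genes took 0.265% to 0.296% and 0.321% to 0.328% at day 5. At day 14 the core shares overlapped, at 0.287% and 0.295% in vehicle and 0.275% and 0.347% in AG120, the lower of the latter in the shallow replicate 1. At day 5 the 7 chaperones took 0.0391% to 0.0424% with vehicle and 0.0609% to 0.0685% with AG120, and the 5 immunoproteasome genes took 0.0524% to 0.0623% and 0.0405% to 0.0461%. These shares are descriptions, with no test.

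**Figure D5:**
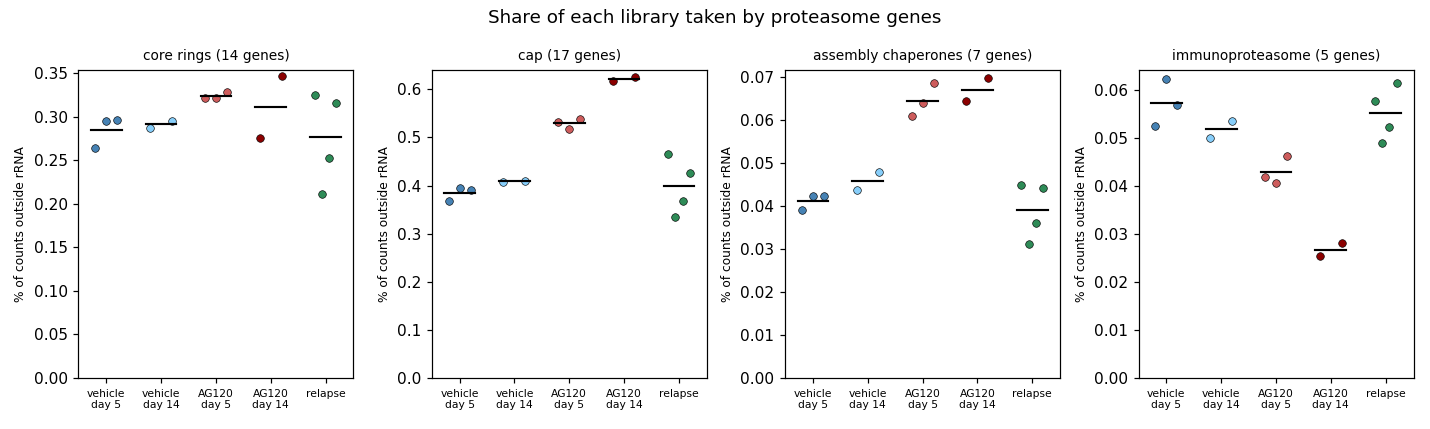
Percent of each library's counts outside ribosomal RNA that fell on core, cap, assembly chaperone and immunoproteasome genes, by group; each point is 1 library, lines are group means, and axes start at 0. Cap and chaperone shares are higher and immunoproteasome shares lower in all 5 AG120 libraries than in the 9 others, while the core shares overlap.

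Genes that work with the proteasome but lie outside the symbol rule were read from the same test. Of 15 tested partners and regulators, 6 rose (40.0%) and 0 fell at day 5 (median 0.36), where 20.1% of all genes tested rose and 19.3% fell, and 4 rose (26.7%) and 1 fell (6.67%) at day 14 (median 0.24), where 16.8% and 17.9% did. Nfe2l2, the antioxidant transcription factor, was at 27.9, 26.9 and 29.5 CPM in vehicle and 49.7, 60.8 and 52.9 CPM in AG120 at day 5 (0.95 ± 0.14, adjusted p = 6.37e-05). It also rose at day 14, by 0.66 ± 0.18 (adjusted p = 0.0083). Nfe2l1, the factor known for restoring proteasome genes after inhibition, did not pass at either day (0.15 ± 0.13, adjusted p = 0.379, and 0.16 ± 0.16, adjusted p = 0.467). Its processing enzymes Ngly1 and Ddi2 were at 0.92 ± 0.3 (adjusted p = 0.0209) and 0.5 ± 0.18 (adjusted p = 0.0344) at day 5. Ubiquitin receptor gene Adrm1 and core assembly factor Pomp did not pass at day 5 (0.47 ± 0.22, adjusted p = 0.096, and 0.36 ± 0.17, adjusted p = 0.114). Sem1, a small cap subunit outside the symbol rule, fell at day 14, from 110 and 114 CPM to 65.1 and 67.5 CPM (−0.75 ± 0.22, adjusted p = 0.0133). Of 19 genes for ubiquitin, its activation and delivery, 7 rose (36.8%) and 2 fell (10.5%) at day 5, and 3 rose (15.8%) and 2 fell (10.5%) at day 14, so that the share that rose at day 14 was near the 16.8% of all genes tested. The shuttle gene Rad23b, which carries tagged proteins to the cap, rose at both days (0.57 ± 0.12 at day 5), and the ubiquitin gene Ubb fell at both (−0.37 ± 0.14 at day 5).

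Genes that use the peptides, or that switch on the inducible subunits, were counted beside Psmb8 and Psmb9. Of 17 genes of MHC class I display and its regulators, 2 fell (11.8%) and 1 rose at day 5 (median −0.27), a share of falls under the 19.3% of all genes tested. At day 14, 9 fell (52.9%) and 1 rose (median −0.84), where 17.9% of all genes tested fell. B2m, the shared light chain of class I, was at 189 and 143 CPM in vehicle and at 65.4 and 74.5 CPM in AG120 at day 14 (−1.25 ± 0.21, adjusted p = 0.000184), but did not pass at day 5 (−0.15 ± 0.16, adjusted p = 0.492). Tap1 and Tap2, the peptide transporter genes that alternate with Psmb9 and Psmb8 on chromosome 17, did not pass at either day. Tap1 was at 0.39 ± 0.22 (adjusted p = 0.182) and −0.27 ± 0.29 (0.497), and Tap2 at −0.27 ± 0.39 (0.623) and −0.65 ± 0.5 (0.346). Their neighbours Psmb8 and Psmb9 thus passed where they did not, with no test of that difference. Irf1, an interferon-induced transcription factor known to drive the inducible subunits, was at 28.3, 29.1 and 27.3 CPM in vehicle and 8.69, 7.73 and 17.7 CPM in AG120 at day 5 (−1.31 ± 0.23, adjusted p = 0.000274). Its fall at day 14 was −2.21 ± 0.31 (adjusted p = 5.02e-05). Nlrc5, the master regulator of class I, did not pass (at day 14 −1.21 ± 0.86, adjusted p = 0.294). Of 23 tested interferon response genes 5 rose (21.7%) and 4 fell (17.4%) at day 5, near the 20.1% and 19.3% of all genes tested, and 2 rose (8.7%) and 6 fell (26.1%) at day 14, where 16.8% and 17.9% did.

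Markers of many other cells also differed between AG120 and vehicle, though some sums went in opposite directions at day 5 and day 14. The summed CPM of 10 erythroid markers went from 18.7 to 49.7 with vehicle to 364 to 442 with AG120 at day 5, and from 37.2 to 53.2 to 888 to 1010 at day 14. Of these 10, 6 rose at day 5 and 8 at day 14. For this and the lists below, 20.1% of all genes tested rose and 19.3% fell at day 5. At day 14 these shares were 16.8% and 17.9%. The summed CPM of 9 T and NK cell markers was 40.3 to 47.3 with vehicle against 11.1 to 12.8 with AG120 at day 5, 42.7 to 44.8 against 7.76 to 8.21 at day 14, and 33.8 to 42.0 in relapse. The 8 monocyte and macrophage markers summed to 32.6 to 39.7 with vehicle against 12.6 to 14.6 with AG120 at day 5, and to 38.4 to 49.2 against 26.9 to 34.6 at day 14. Both sums were lower in AG120, but only 3 of the 9 T and NK markers were abundant enough to test (2 fell at day 5 and 1 at day 14), as were 5 of the 8 monocyte markers (2 and 1 fell). Mature T, NK and monocyte cells lack cKit for the most part, so the sort was set to leave them out. The 7 B and plasma cell markers summed to 2.28 to 3.41 in vehicle day 5 and 0.479 to 1.68 in AG120 day 5, and to 2.49 to 2.76 and 0.4 to 0.597 at day 14. Only 1 of them was tested, and it fell at both days. The 8 dendritic and class II markers summed to 4.27 to 7.4 and 1.76 to 2.69 at day 5, but to 6.45 to 7.46 and 10.6 to 11.6 at day 14. Of the 6 tested, 0 rose and 1 fell at day 5, and 0 rose and 0 fell at day 14. The 8 neutrophil markers summed to 583 to 772 and 123 to 208 at day 5, but to 978 to 1190 and 1290 to 1690 at day 14. All 8 were tested: 0 rose and 3 fell at day 5, and 0 rose and 1 fell at day 14, so the higher sum there came with no marker called higher. The 7 megakaryocyte markers summed to 252 to 312 and 33.4 to 54.7 at day 5 and to 223 to 251 and 71.0 to 79.1 at day 14. Of the 6 tested, 0 rose and 4 fell at day 5, and 1 rose and 1 fell at day 14. The 8 mast cell, basophil and eosinophil markers summed to 68.6 to 78.0 and 52.0 to 75.4 at day 5 and to 79.5 to 81.1 and 10.7 to 13.6 at day 14. Of the 5 tested, 1 rose and 2 fell at day 5, and 0 rose and 3 fell at day 14. In relapse the sums were 4.08 to 182 for erythroid, 260 to 1290 for neutrophil and 36.3 to 103 for monocyte markers, wider than in the other groups. No marker was at 0 in every library, and the part of these cells in the results was not tested.

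The relapse libraries asked whether proteasome genes stayed changed once disease had returned after AG120. Against vehicle, 0 of the 47 genes passed in edgeR's test (0.183% of all genes tested did), 2 had an unadjusted p under 0.05, and DESeq2 and limma-voom also called 0, as did each relapse library left out in turn. The median was 0.00, against 0.02 over all genes tested. Psmb8 was at 79.7, 59.9, 66.5 and 86.8 CPM in relapse, within or just above the 55.4 to 83.6 CPM of the vehicle libraries, and differed from vehicle by 0.13 ± 0.12 (log2, SE, 95% interval −0.11 to 0.37, adjusted p = 0.722). Psmb9 was at 44.4, 38.5, 37.1 and 38.1 CPM (0.15 ± 0.12, interval −0.08 to 0.38, adjusted p = 0.667). The 2 genes with an unadjusted p under 0.05 were Psme4, at 49.1, 58.6, 60.4 and 42.9 CPM against 38.8 to 45.6 CPM in vehicle (0.34 ± 0.11, adjusted p = 0.213), and Psmb11 (−1.8 ± 0.58, adjusted p = 0.222). Psmb11 was the only one of the 47 whose relapse libraries all lay on one side of vehicle, where 3.95% of all genes tested did so in either direction, and its counts are few.

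Within relapse, most core and cap genes were higher in replicates 1 and 4 than in 2 and 3. The mean log2 CPM of the core genes was 6.03, 5.39, 5.57 and 6.01 in replicates 1 to 4, and that of the cap genes 6.27, 5.68, 5.83 and 6.19. Psmb5 was at 152, 78.2, 93.7 and 146 CPM and Psmc1 at 244, 136, 177 and 218 CPM. Kit and Itgam, given above, divided the same libraries. Psme4 ran the other way, higher in replicates 2 and 3, and Psmb9 was at similar levels in all 4. No test was made within the group.

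Against the mean of both AG120 groups, 3 genes were higher in relapse and 28 lower, where 27.9% of all genes tested were higher and 26.1% lower (median −0.47 against 0.01). This comparison shares its AG120 libraries with those against vehicle, so it is no independent evidence. Psmb8 was 3.56-fold higher in relapse (log2 1.83 ± 0.13, adjusted p = 8.53e-09) and Psmb9 2.41-fold higher (1.27 ± 0.13, adjusted p = 3.83e-07), with no overlap of libraries. Psme1 was higher by 0.26 ± 0.11 (adjusted p = 0.048), a call lost without any single AG120 library (0.0623 to 0.119) and without relapse replicate 1 (0.0652) or 4 (0.184). Psmb10 was lower by −0.33 ± 0.13 (adjusted p = 0.0376), a call lost without AG120 day 14 replicate 2 (0.251), AG120 day 5 replicates 1 (0.0725) and 3 (0.0691), or relapse replicates 2 (0.165) and 3 (0.077).
Of the cap genes 14 of 17 were lower, of the core genes 5 of 14 and of the chaperones 5 of 7. Psmd7 was at 103, 68.8, 92.3 and 102 CPM in relapse, below all AG120 libraries (175 to 233 CPM; −1.15 ± 0.12, adjusted p = 5.15e-07). The other large differences were those of Psme3 (−1.16 ± 0.16, adjusted p = 1.67e-05), Psmg2 (−1.07 ± 0.15, 1.35e-05) and Psmf1 (−1.02 ± 0.14, 1.57e-05), each with no overlap. Psmb11 was at −1.91 ± 0.6 (adjusted p = 0.0123), a call lost without AG120 day 14 replicate 2 (0.214). The libraries of relapse lay below all of AG120 for 20 of the 47 genes and above for 2, where this held for 18.9% and 18.3% of all genes tested. Outside the symbol rule, 12 of the 17 class I genes were higher and 1 lower, Irf1 was higher by 2.06 ± 0.2 (adjusted p = 3.18e-07), and Pomp was lower by −0.54 ± 0.15 (adjusted p = 0.00504).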

How the data were processed

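The table that the authors deposited holds raw counts for 52636 identifiers in 14 columns, each matched to a library by name. Per the submitters' processing notes, the build was mm10 and the tools were HISAT2 2.1.0, featureCounts from Subread 1.6.3, cutadapt 1.14, bcl2fastq 2.17.1.14, edgeR 3.28.1, limma 3.42.2 and R 3.6.2. How strand, multiply matching reads and molecular identifiers were handled is not given in the sources used here. Gene names and coordinates are those of the GENCODE M21 annotation (GRCm38), which named 52489 identifiers; 22670 were at 0 throughout.

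Genes were filtered with filterByExpr (minimum count 10), which left 11994, scaled by TMM (factors 0.672 to 1.33) and fitted in R 4.3.3 with edgeR 4.0.16's robust quasi-likelihood fit, using all 14 libraries and a coefficient for each group (9 residual degrees of freedom). Adjusted p values are from that test with Benjamini-Hochberg adjustment over all 11994 genes; "passed", "rose" and "fell" mean an adjusted p below 0.05. Log2 fold changes are fitted values, with their SE. Intervals are 95% by the normal distribution, so they are slightly narrower than ones matched to the degrees of freedom of the test. CPM uses TMM-scaled library sizes; log2 CPM has a prior count of 2. Groups were taken from the sample titles, with 1 mouse per library. The ribosomal RNA gene models stayed in the table. The comparison script was tested on simulated counts.

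DESeq2 1.42.0 and limma-voom (limma 3.58.1), other scaling and filters, libraries thinned to 1 depth, a replicate block and each library left out were alternatives. Named genes were the inducible and constitutive catalytic subunits, Psme1 to Psme4, Psmf1, the chaperones, up to 5 rises and 5 falls per comparison, the member of smallest adjusted p per class, and a fixed set of partners and regulators; Psmd8, Psmd10 and cap genes with fragile calls were added after their values were seen. The members and lists were chosen with earlier results of these data known. Protein sequences were not used here, and some genes and motifs are not reported here.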

Additional observations from a re-analysis of the deposited data

Results flagged for a closer look

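The effect of AG120 on Psmb8 differed between the days: the day 14 change minus the day 5 change was −1.3 (log2) in a direct test across all genes. The alternatives under which it no longer passed are given with that test in the results. Among the 47 tested genes, 0 had a relapse library that stood far from the other 3 by Dixon's criterion; the other groups are too small for it.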

How the results depend on the processing

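No gene that passed changed sign under any alternative. Values that did not pass did so for 5 genes at day 5 and 13 at day 14, among them Psmb6 (−0.01 to 0.13 at day 5, −0.34 to 0.32 at day 14), Psmb5 (−0.07 to 0.41 at day 14) and Psmb10 (−0.25 to 0.21 at day 14). At day 5, 17 of 24 calls passed in every alternative, at day 14 9 of 22, and for relapse minus AG120 23 of 31. Leaving out 1 library at a time gave 20 to 22 calls at day 5, 10 to 17 at day 14 (22 with all libraries), 0 to 1 for the difference between the days and 23 to 33 for relapse minus AG120, with 33 without relapse replicate 1 and 23 without AG120 day 14 replicate 2; where this left 1 library in a group, that library was assumed to vary like the other groups. The difference between the days, with 1 call as reported, had 0 by limma-voom, 0 with libraries thinned to 1 depth and 3 when the fit held only the compared groups. Vehicle day 14 minus vehicle day 5 had 2 in that smaller fit, Psmb3 and Psmb8, against 0. With a prior count of 2, the mean log2 ratio of Psmb8 to Psmb5 in vehicle day 14 was −1.01 in place of −1.02, whose libraries agree to the digits kept. Psmb8 stayed between −1.16 and −0.98 at day 5 and between −2.58 and −2.19 at day 14, and Psmb9 between −0.8 and −0.61 and between −1.85 and −1.26. Deviations of same-numbered libraries from their group means had small positive correlations (0.107, 0.0491 and 0.0171 at day 5 and 0.0685 at day 14). Differently numbered libraries gave −0.106 to 0.077 at day 5. With 2 libraries in a group, the day 14 values must be equal in size, so they cannot decide. Whether the numbers pair the mice is therefore not known, and the main fit did not pair them. With a replicate block there were 24 calls at day 5, 23 at day 14, 1 for the difference, 0 for relapse minus vehicle, 33 for relapse minus AG120 and 0 between the vehicle groups.

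The shallowest library had 1259982 counts outside ribosomal RNA, so genes such as Psme2, Psmb11 and Psmf1 rest on few counts. With 2 libraries in each day 14 group, a gene that did not pass there may still differ. Members share their mice and are not replicates of a condition. RNA levels say nothing here of proteasome protein or activity.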
